A study of Mus musculus with 5 samples.

Results

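The hexokinases and glycolytic isoenzymes were followed here as 10 mouse genes: the glucose transporter gene Slc2a1, the hexokinase genes Hk1 and Hk2, the phosphoglucose isomerase gene Gpi1, the phosphofructokinase genes Pfkl, Pfkm and Pfkp, the pyruvate kinase gene Pkm, and the lactate dehydrogenase genes Ldha and Ldhb. Members were all probe sets, groups of short probes against 1 transcript, to which the platform annotation gives 1 of these symbols and no other. This gave 19 probe sets of 9 genes, out of 34945 probe sets of 18193 genes with a single symbol. No probe set met this rule for Gpi1, so its signal was not analysed here and it enters only the promoter windows. For Hk1, 1 further probe set was left out because the annotation lists several genes for it.

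RNA had been hybridised to Affymetrix expression arrays from 4 mouse medulloblastomas, a tumour of the cerebellum, and from 1 mouse cerebellum labelled P5, read as postnatal day 5. The labels give no genotype, strain, treatment, sex or tumour age for any array. The series title concerns tumours from mice mutant for Cxcr6 and an inhibitor of Smoothened, and neither could be assigned to an array, so the comparison made was tumour against P5 cerebellum. The sample titles carry the prefix ken on medulloblastomas 1 and 2, and hmk on the remaining tumours and the cerebellum. Trizol is given as the extraction method of every array except medulloblastoma 4, whose entry names a standard Affymetrix procedure. Defining genes of the cerebellum were present on every array: Zic1 read 16486 to 21638 in the tumours and 24337 in the cerebellum, Atoh1 4178 to 9505 and 963, and the Purkinje cell gene Calb1 1350 to 5972 and 9342. Nothing says whether the tumours came from separate animals, and age cannot be told apart from tumour in this comparison. In bulk RNA, fewer cells of a type and less RNA per cell cannot be told apart either.

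Glycolysis takes up glucose through transporters such as GLUT1, traps it as glucose 6-phosphate by hexokinase, commits it at phosphofructokinase, and ends with pyruvate kinase and lactate dehydrogenase. Most steps are run by several isoenzymes encoded by separate genes, with hexokinase 1 the usual form of adult neurons and hexokinase 2 a form of muscle, fat and many proliferating cells. In the developing cerebellum, granule neuron precursors divide under Hedgehog signalling and are known for aerobic glycolysis with hexokinase 2.

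All values below are signals, the deposited intensities on a linear scale, or differences of log2(signal + 32) as tumours minus cerebellum. Each gene is represented by its brightest probe set unless others are named, and ± after a difference is the standard error of a limma fit across 14109 genes. Adjusted p-values are Benjamini-Hochberg values from that fit over all those genes. The cerebellum is a single array, so the spread comes from the tumours alone, and the smallest p that exact permutation of the 5 arrays allows is 0.2. All 9 genes and all 19 probe sets had a mean signal of at least 100. The fit tested each of the 9 genes by its brightest probe set alone.

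None of the 9 genes passed an adjusted p of 0.05 (limma), where 0.312% of all genes tested were called higher and 0.177% lower. At an unadjusted p under 0.05, Hk2 was on the higher side and Pfkp on the lower side, which makes 1 of 9 in each direction against 7.72% and 7.44% of all genes. This pair also made up the members whose signal differed 2-fold or more in each tumour, a distance reached without a test by 2.01% of all genes upwards and 2.63% downwards. Over the 9 genes, 3 lay above the cerebellum in all 4 tumours (Hk2, Pkm and Slc2a1), as did 25.1% of all genes. Pfkp alone lay below it in all 4, as did 30.8%. The other 5 genes had tumours on both sides of the cerebellum. The median difference of the 9 genes was -0.26, and that of all genes was -0.07.

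**Figure D1:**
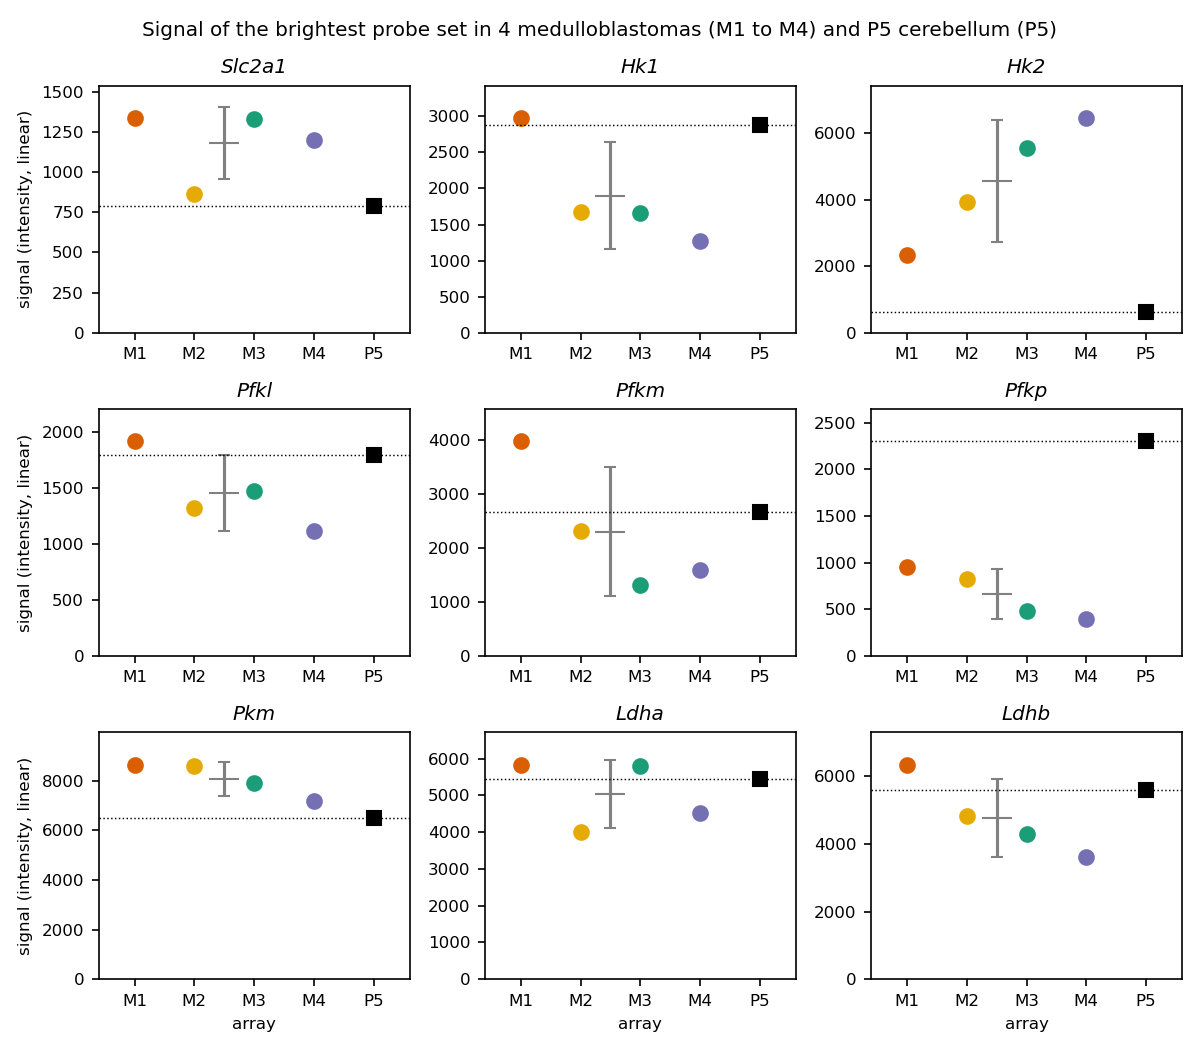
Signal (linear intensity, y axis from 0) of the brightest probe set of each gene on the arrays of medulloblastomas 1 to 4 (M1 to M4, circles) and the P5 cerebellum (P5, square and dotted line); the grey bar is the mean ± SD of the 4 tumours. Hk2 lies at 2324 to 6449 in the tumours against 616 in the cerebellum, and Pfkp at 395 to 949 against 2301.

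The promoter windows of Hk2 and Pfkp are shown because these were the members furthest above and below the cerebellum. Both are the 250 bases before the start of the gene in RefSeq on GRCm38.p6, written in the direction of transcription. Capitals mark the core letters of hypoxia response elements, ACGTG or GCGTG, on either strand; on the opposite strand they read CACGT or CACGC.
Hk2, chr6:82774455-82774704, minus strand: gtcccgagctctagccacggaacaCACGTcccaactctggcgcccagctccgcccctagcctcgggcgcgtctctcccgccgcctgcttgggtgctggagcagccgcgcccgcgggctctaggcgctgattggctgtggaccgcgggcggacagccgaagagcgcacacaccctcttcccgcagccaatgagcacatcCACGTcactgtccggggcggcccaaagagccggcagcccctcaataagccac
Pfkp, chr13:6648772-6649021, minus strand: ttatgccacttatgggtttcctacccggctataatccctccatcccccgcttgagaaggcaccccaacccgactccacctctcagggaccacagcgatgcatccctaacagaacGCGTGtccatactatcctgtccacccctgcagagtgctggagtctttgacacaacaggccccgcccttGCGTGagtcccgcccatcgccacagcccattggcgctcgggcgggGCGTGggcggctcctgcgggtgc

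The Hk2 window held ACGTG 2 times and GCGTG 0 times, whereas the Pfkp window held GCGTG 3 times and ACGTG 0 times. Windows of this length at 32851 RefSeq starts held ACGTG in 16.6%, GCGTG in 28.2% and either in 38.6% of cases. The E-box CACGTG, which contains ACGTG, was in neither window and in 6.02% of all. The Gli motif GACCACCCA was in neither, and in 0.225% of all. GC boxes, GGGCGG, numbered 3 in Hk2 and 4 in Pfkp, and 32.7% of all windows held at least 1. All 10 genes had a window, and at 12 of their 16 starts it held ACGTG or GCGTG. These windows are not all separate: 4 belong to Pfkm, and those at its starts 2 and 3 overlap and share 1 GCGTG match. Ldha had 5 matches of ACGTG at its first start, 4 of which are its 2 palindromic E-boxes read on both strands. Its signal lay on both sides of the cerebellum among the tumours. Matches of letters are a description of these windows and no evidence of binding.

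Slc2a1 encodes GLUT1, the glucose transporter of the blood-brain barrier and of many dividing cells. Its brightest probe set read 1338, 862, 1334 and 1199 in medulloblastomas 1 to 4 and 787 in the cerebellum. All tumours lay above the cerebellum, medulloblastoma 2 only just, and the difference was 0.55 ± 0.31 (limma, adjusted p = 0.426). The probe sets did not behave alike. The third read 912, 463, 897 and 720 against 504, a difference of 0.49 with medulloblastoma 2 below the cerebellum. The second read 928, 800, 847 and 750 against 884, a difference of -0.09. Endothelial and pericyte markers, 12 of 12 measured, had summed signals of 4006 to 5848 in the tumours and 11581 in the cerebellum. Of these 12, 11 lay below the cerebellum in every tumour, against 30.8% of all genes. Pecam1, Cdh5 and Kdr, which define endothelium, read 58.0 to 421 in the tumours and 447 to 1096 in the cerebellum. The part of these cells in the Slc2a1 values was not tested.

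Hk2 encodes hexokinase 2, which binds the outer mitochondrial membrane and phosphorylates glucose. Its single probe set read 2324 in medulloblastoma 1, 3924 in medulloblastoma 2, 5558 in medulloblastoma 3 and 6449 in medulloblastoma 4, against 616 in the cerebellum. Every tumour was well above the cerebellum, by 3.77-, 6.37-, 9.03- and 10.5-fold, and the tumour mean was 4564 ± 1823 (SD, n = 4). The difference was 2.73 ± 0.49 on the log2 scale, with a 95% interval of 1.60 to 3.85, and ranked 35 from the top among 14109 genes. The adjusted p was 0.0682 (limma), so the call was missed. It was made without medulloblastoma 1 (3.01 ± 0.27, adjusted p = 0.00161) and with arrays scaled to equal medians (2.91, adjusted p = 0.0417); without medulloblastomas 2, 3 or 4 the adjusted p was between 0.136 and 0.188. Within the hmk arrays the difference was 3.22 (adjusted p = 7.90e-06, with the spread taken from 2 tumours), and the ken tumours set against the hmk cerebellum gave 2.24 (adjusted p = 0.0972). Over all genes these fits differed in their share of calls: 3.18% were called higher and 2.71% lower without medulloblastoma 1, 5.93% and 5.96% within the hmk arrays, and 0.553% higher with equal medians.

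Hk1, which encodes the hexokinase of mature brain, took the opposite order. It read 2976, 1676, 1662 and 1277 in medulloblastomas 1 to 4 and 2876 in the cerebellum. Medulloblastoma 1 was level with the cerebellum, at 1.03-fold, and the others lay at 0.583, 0.578 and 0.444 of it. The difference was -0.66 ± 0.41 (limma, adjusted p = 0.467). A second probe set had the same pattern, at 1087, 617, 558 and 470 against 954 (-0.53). Within the hmk arrays the Hk1 difference was -0.97 (adjusted p = 0.0237); over the alternatives the adjusted p ran from there to 0.755.

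The hexokinases therefore differed from the cerebellum unequally within each array. Set against Hk1, the log2 ratio of Hk2 was higher than in the cerebellum by 1.81, 3.38, 3.89 and 4.47 in medulloblastomas 1 to 4, a mean of 3.39 ± 1.14 (SD, n = 4). Signals of separate probe sets are not comparable as amounts, so this says that the pair moved apart and not which enzyme was more abundant. Marker genes of dividing cells, 9 of 10 measured, summed to 41733, 55919, 52301 and 51680 in medulloblastomas 1 to 4 and 28608 in the cerebellum. Of the 9, 8 lay above the cerebellum in every tumour, against 25.1% of all genes. Marker genes of maturing granule neurons, 8 of 8 measured, summed to 40318, 22898, 14773 and 17555 in medulloblastomas 1 to 4 and 18751 in the cerebellum. This sum was highest in the tumour with the lowest Hk2 and the highest Hk1. The sum of the dividing cell markers was the lowest of the 4 tumours there. Of the 4 tumours, that tumour also had the highest sums of Purkinje cell, choroid plexus and oligodendrocyte markers. Most of the oligodendrocyte sum there was Mbp, at 28288. Mag was highest there too, but Olig1 (1907 against 3412 to 4376 in the other tumours) and Pdgfra (2357 against 4112 to 5106) were lowest. Mog lay between. The list of maturing granule neurons did not move as one: 4 genes, Gabra6 (3.99) furthest, lay above the cerebellum in every tumour and 1, Neurod2 (-1.80), below. These counts stand against 25.1% and 30.8% of all genes. Whether these cells bear on the hexokinase values was not tested.

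By a rule on likeness of pattern, the 3 genes closest to Hk2 in log2 signal over the 5 arrays, each centred on its mean, were Slfn9, Mycl and Cdk6, at root mean square distances of 0.10, 0.12 and 0.15. Mycl, a member of the Myc family, read 1305, 2173, 2549 and 3660 against 330. Cdk6, a kinase of the G1 phase, read 6067, 10180, 12712 and 12574 against 1479. With 5 arrays such likeness is a description only.

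**Figure D2:**
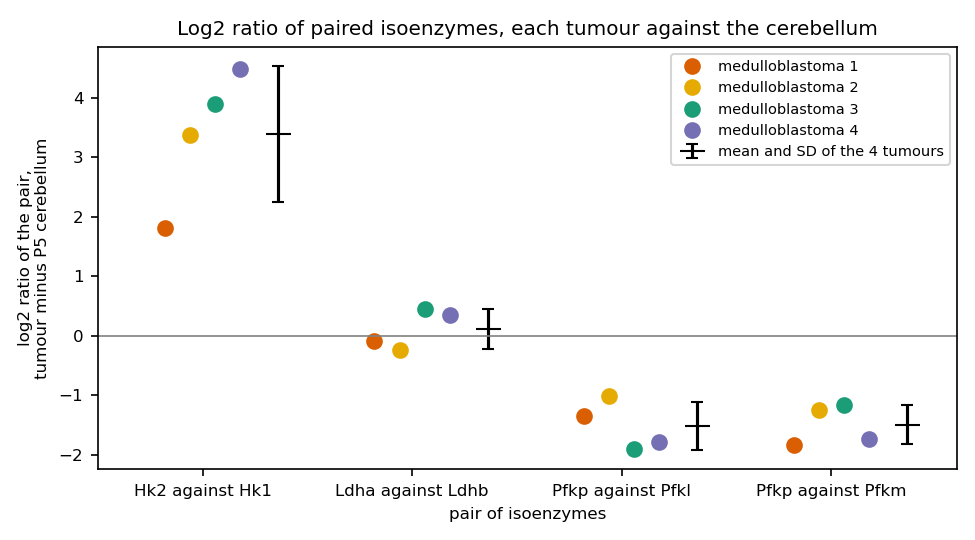
Log2 ratio of the first gene over the second in each tumour minus the same ratio in the P5 cerebellum (y axis), for 4 pairs of isoenzymes (x axis); circles are medulloblastomas 1 to 4 and the bar is their mean ± SD. Hk2 against Hk1 lies at 1.81 to 4.47, Pfkp against Pfkl at -1.89 to -1.02, and Ldha against Ldhb on both sides of 0.

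Phosphofructokinase, the committed step, is a tetramer of liver (Pfkl), muscle (Pfkm) and platelet (Pfkp) type subunits, all of which occur in brain. Pfkp read 949, 824, 486 and 395 in medulloblastomas 1 to 4 and 2301 in the cerebellum. All tumours were far below the cerebellum, which was higher by 2.42-, 2.79-, 4.74- and 5.82-fold. The tumour mean was 664 ± 265 (SD, n = 4) and the difference -1.83 ± 0.46, with a 95% interval of -2.90 to -0.76. It ranked 229 from the bottom among 14109 genes and missed the threshold (limma, adjusted p = 0.141). It was called without medulloblastoma 1 (-2.02, adjusted p = 0.0215) and within the hmk arrays (-2.31, adjusted p = 0.000706), whereas the ken tumours gave -1.35 (adjusted p = 0.180).

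A second, dimmer Pfkp probe set also separated the groups, at 362, 294, 131 and 97.4 against 1005, a difference of -2.18. The third and dimmest read 281, 201, 74.6 and 26.4 against 212, with medulloblastoma 1 above the cerebellum, a difference of -0.74. With all 3 averaged, the Pfkp difference was -1.58 (adjusted p = 0.315). Astrocyte and Bergmann glia markers, 10 of 10 measured, had summed signals of 25756 to 30448 in the tumours and 71224 in the cerebellum. Of these 10, 6 lay below and 3 above the cerebellum in every tumour, against 30.8% and 25.1% of all genes. The list did not move as one. Its largest parts of the cerebellar sum were Fabp7 at 27942 and Slc1a3 at 14834, against 2200 to 7371 and 4586 to 6870 in the tumours. Aldh1l1 and Aqp4 were the 2 markers of this list called, both lower, where 0.177% of all genes tested were called lower. They read 567 to 2039 in the tumours against 4062 and 6866. S100b, Slc1a2 and Sox9 lay above the cerebellum in every tumour without a call, by 1.62, 0.71 and 0.58, and Gfap differed by -0.22 with tumours on both sides. Their part in the Pfkp values was not tested.

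Of the 9 genes, Pfkm varied most among the tumours relative to its level, by 3.04-fold from the lowest to the highest. It read 3978, 2321, 1309 and 1598 in medulloblastomas 1 to 4 and 2660 in the cerebellum, so that medulloblastoma 1 lay above and the others below. The difference was -0.34 ± 0.52 (limma, adjusted p = 0.783). It had opposite signs by title prefix, -0.86 within the hmk arrays (adjusted p = 0.0323) and 0.19 for the ken tumours (adjusted p = 0.871); over all alternatives the adjusted p was between 0.0323 and 0.943.

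Pfkl read 1913, 1320, 1468 and 1117 against 1790, a difference of -0.32 ± 0.31 (limma, adjusted p = 0.642), again with medulloblastoma 1 alone above the cerebellum. Its second probe set was below the cerebellum in all tumours, at 1528, 1191, 1233 and 945 against 1693 (-0.48), and the dimmest differed by -0.27. At the brightest probe sets Pfkp stood apart from both other subunits within every tumour: the log2 ratio of Pfkp to Pfkl differed from that of the cerebellum by a mean of -1.51 ± 0.40 (SD, n = 4), and that of Pfkp to Pfkm by -1.49 ± 0.33 (SD, n = 4). By the dimmest Pfkp probe set it did not stand below Pfkl in medulloblastomas 1 and 2, where that probe set differed from the cerebellum by 0.36 and -0.065 and Pfkl by 0.095 and -0.43.

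**Figure D3:**
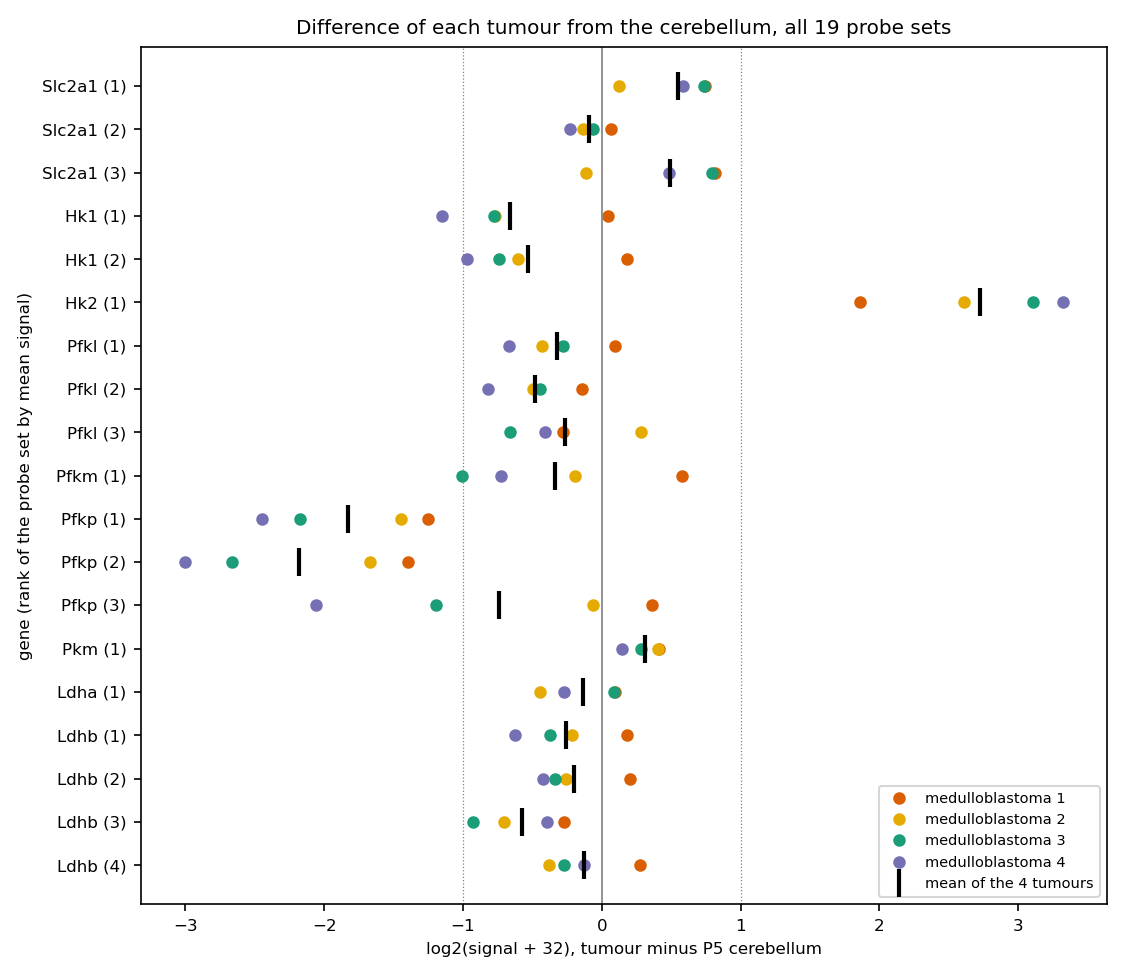
Difference of log2(signal + 32) of each tumour from the P5 cerebellum (x axis) for all 19 probe sets (y axis, numbered within a gene from the brightest); coloured points are medulloblastomas 1 to 4, black ticks their mean, and dotted lines mark a 2-fold difference. Hk2 lies wholly to the right of the dotted line, and the 2 brighter Pfkp probe sets wholly to the left of it.

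Pkm encodes pyruvate kinase, made as the M1 or the M2 form by choice of exon; where its probes lie in the transcript was not known, so the forms could not be separated. It read 8654, 8600, 7908 and 7183 in medulloblastomas 1 to 4 and 6486 in the cerebellum. All tumours lay above the cerebellum by a small margin, 1.11- to 1.33-fold, and the difference was 0.31 ± 0.20 (limma, adjusted p = 0.489). It had the smallest spread among tumours of the 9 genes, 1.20-fold. Ptbp1 and Hnrnpa2b1, splicing factors that act on the Pkm exons, were above the cerebellum in all tumours, as were 25.1% of all genes. They differed by 0.49 ± 0.23 and 0.38 ± 0.24 (limma, adjusted p = 0.358 and 0.472), and Hnrnpa1 by -0.04 ± 0.31. These splicing genes were added after their values were seen, and are given by their brightest probe sets alone.

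Lactate dehydrogenase is built of A subunits, common in glycolytic tissue, and B subunits, common in heart and mature brain. Ldha read 5839, 3999, 5791 and 4514 in medulloblastomas 1 to 4 and 5458 in the cerebellum. The tumours lay on both sides, 2 above and 2 below, and the difference was -0.13 ± 0.27, with a 95% interval of -0.75 to 0.48 (limma, adjusted p = 0.835). The sign turned to 0.06 with arrays scaled to equal medians, which moved the median of all genes from -0.07 to 0.12. Ldhb read 6350, 4816, 4307 and 3607 against 5585, with medulloblastoma 1 above and the others below, a difference of -0.26 ± 0.30 and a 95% interval of -0.95 to 0.44 (adjusted p = 0.709). Its 3 other probe sets differed by -0.20, -0.57 and -0.13, and 1 of them was below the cerebellum in all tumours. The log2 ratio of Ldha to Ldhb differed from that of the cerebellum by -0.09, -0.23, 0.46 and 0.35 in medulloblastomas 1 to 4. The genes closest to Ldhb in pattern over the 5 arrays were Stat2, Rnf31 and Cnst, at distances of 0.04, 0.04 and 0.04. Ldhb varied less over the arrays than Hk2, so these distances cannot be set against those of the genes near Hk2. This likeness too is a description only.

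Counted by probe set, 3 of the 19 were above the cerebellum in all 4 tumours and 4 below it, where 25.4% and 28.4% of all named probe sets past the same minimum were. The remaining 12 had tumours on both sides.

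The tumours also differed among themselves. The ken and hmk tumours did not overlap for 6 of the 9 genes, Hk1, Hk2, Pfkm, Pfkp, Pkm and Ldhb, a separation seen in 44.8% of all genes tested. As was noticed after the values were seen, medulloblastoma 1 had the highest signal of the 4 tumours for 8 of the 9 genes, all but Hk2, for which it had the lowest; it was the highest for 30.9% of all genes. Medulloblastoma 4 was the lowest for 5 of the 9, against 23.9% of all genes. Per tumour, the median difference of the 9 genes was 0.18, -0.21, -0.28 and -0.63 in medulloblastomas 1 to 4. Medulloblastoma 1 had the highest 3' to 5' signal ratios, a check of RNA integrity, at 1.45 for actin and 0.946 for Gapdh, where the other arrays had 1.21 to 1.35 and 0.731 to 0.824. Its summed signal of Purkinje cell markers, 4 of 6 measured, was 25554, against 5209 to 14107 in the other tumours and 36382 in the cerebellum. Choroid plexus markers, 5 of 6 measured, summed to 33510 there, to 4104 to 16094 in the other tumours and to 13422 in the cerebellum, but most of each sum was Ttr, at 31466 in medulloblastoma 1 and 11956 in the cerebellum. Otx2 was also higher there than in the cerebellum, at 1608 against 843, whereas Folr1 (236 against 297), Aqp1 (95 against 217) and Kl (105 against 109) were not. The part of these in the ranks was not tested.

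Further genes of glycolysis showed no call over all genes tested, among 9 with enough signal out of 14 listed. Aldoc, the brain aldolase found in astrocytes and Purkinje cells, read 13122, 7200, 5918 and 7267 against 4479, all above the cerebellum (0.83 ± 0.39, limma, adjusted p = 0.358). Tpi1, triose phosphate isomerase, read 3535, 2259, 2760 and 2719 against 4304, all below (-0.62 ± 0.27, adjusted p = 0.329), with -0.56 and -0.70 at its other probe sets. Ldhd, which acts on D-lactate, read 149, 298, 85.7 and 46.7 against 382 (-1.43 ± 0.76), whereas a second probe set differed by -0.14. The list's median was 0.05. In all tumours 1 gene lay above the cerebellum and 3 below, against 25.1% and 30.8% of all genes. Medulloblastoma 1 was the highest tumour for 7 of the 9, against 30.9% of all genes.

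Among other hexokinases and the enzymes of fructose 2,6-bisphosphate, which activates phosphofructokinase, 6 of 8 could be tested and none was called; their median was 0.04. Hk3, a hexokinase of myeloid cells, read 246, 159, 322 and 259 against 157 (0.53 ± 0.46), and its second probe set differed by -0.09. Microglia and macrophage markers, 11 of 11 measured, summed to 22538 to 28126 in the tumours and 7366 in the cerebellum. Of these 11, 4 were called higher, against 0.312% of all genes tested. The part of these markers in the Hk3 values was not tested. Hkdc1, a hexokinase-like gene, differed by 0.98 ± 0.75, and by -0.49 at its other probe set. Pfkfb3, which makes fructose 2,6-bisphosphate, read 239, 251, 421 and 396 against 520 (-0.66 ± 0.41), and its second probe set had the opposite sign (0.61).

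For 11 transporters of glucose, lactate and pyruvate the median was -0.33. None was called. In every tumour 7 lay below the cerebellum and 2 above, against 30.8% and 25.1% of all genes. Slc16a1, which encodes the monocarboxylate transporter MCT1, read 1345, 1466, 1565 and 1413 against 2677 (-0.87 ± 0.23, limma, adjusted p = 0.148). Slc16a3, the lactate exporter MCT4, read 121, 140, 154 and 106 against 408 (-1.45 ± 0.46, adjusted p = 0.228). At these probe sets the tumours of both genes lay close together and well below the cerebellum. A second, dim Slc16a1 probe set read 14.3, 67.4, 55.7 and 24.8 against 55.4, with tumours on both sides (-0.34). Slc2a4, the insulin-responsive transporter, read 399, 913, 700 and 822 against 359 (0.86 ± 0.43), with 0.40 at its second probe set.

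Of 12 genes of pyruvate dehydrogenase and its regulators, none was called and the median was -0.05. Pdk1, a kinase that shuts pyruvate out of mitochondrial oxidation and a known target of hypoxia-inducible factor, read 163, 139, 106 and 24.5 against 363 (-1.64 ± 0.75, limma, adjusted p = 0.353). Its 3 other probe sets were lower too, by log2 differences of -2.12, -1.60 and -1.51. Pdp1, a phosphatase that acts the other way, read 579, 728, 938 and 959 against 549 (0.49 ± 0.34), with -0.04 at its second probe set, and Pdk4 differed by -0.47 ± 0.93. The pentose phosphate pathway, which branches off at glucose 6-phosphate, had no call among 6 genes and a median of -0.09; Taldo1 differed by -0.56 ± 0.25, Pgd by -0.53 ± 0.27 and Rpia by 0.43 ± 0.35. The 3 other probe sets of Pgd differed by -0.81, 0.64 and -0.01.

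The 11 regulators of glycolytic genes included no call, and their median was 0.38. In every tumour 5 lay above the cerebellum and 2 below, against 25.1% and 30.8% of all genes. The 11 include Ptbp1, Hnrnpa1 and Hnrnpa2b1, the splicing genes given above as added after their values were seen. Hnrnpa2b1 is the gene at the median, and it and Ptbp1 are among the 5 above. Myc, which induces Hk2, Ldha and other genes of the pathway, read 329, 746, 1333 and 874 against 241 (1.49 ± 0.61, limma, adjusted p = 0.307). Mycn, its relative in granule neuron precursors, differed by 1.01 ± 0.23 (adjusted p = 0.115), with 0.54 and -1.75 at its other probe sets. Hif1a, the oxygen-regulated subunit of hypoxia-inducible factor, read 1697, 2176, 2685 and 2346 against 3647 (-0.72 ± 0.28, adjusted p = 0.290), and its other probe sets differed by -0.22, 0.35 and -0.49. Among 12 targets of that factor outside glycolysis none was called, and the median was -0.14. P4ha1, a collagen hydroxylase, was above the cerebellum in all tumours (0.65 ± 0.31, and 0.92 at its second probe set). Adm read 13.8, 106, 104 and 119 against 321 (-1.73 ± 0.80), but its second probe set had the opposite sign (1.67), and Car9 differed by -0.54 ± 0.63.

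**Figure D4:**
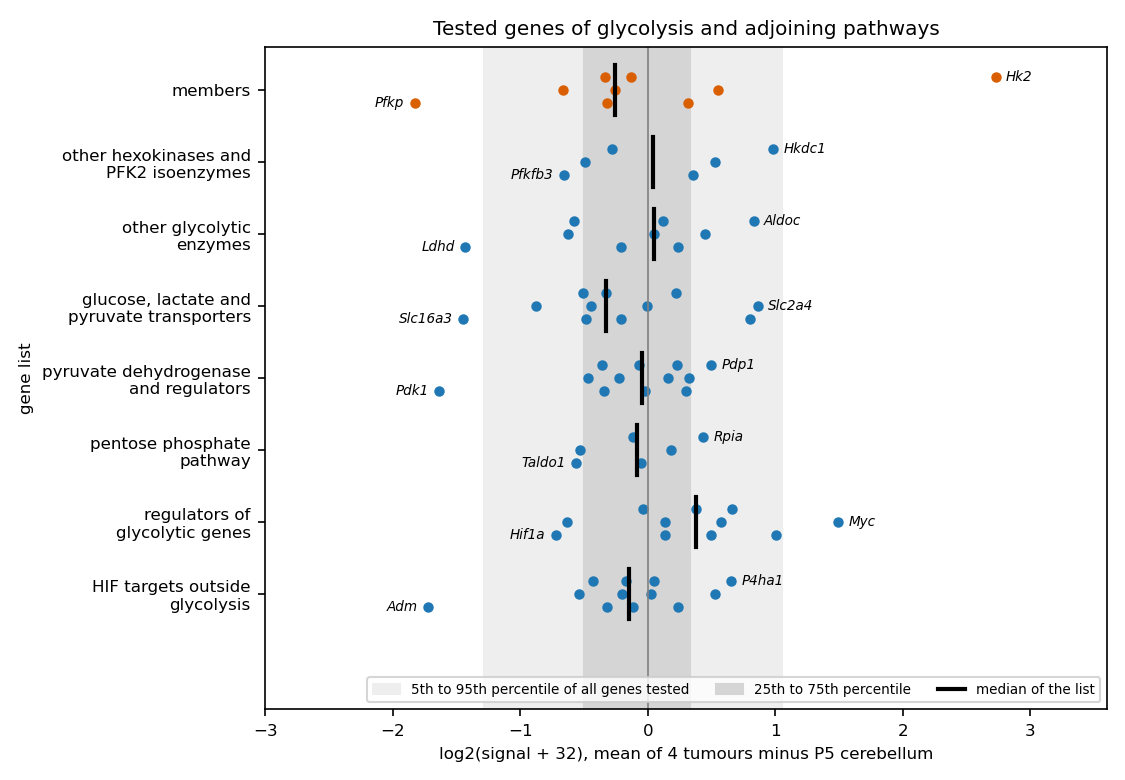
Mean difference of log2(signal + 32) between the 4 tumours and the P5 cerebellum (x axis) for each tested gene (points) of 8 gene lists (y axis), with list medians as black bars and the 5th to 95th and 25th to 75th percentiles of all 14109 genes as grey bands; the outermost gene of each list on either side is named. Hk2, at 2.73, lies furthest from 0 of all genes drawn.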

How the data were processed

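The deposited values were linear intensities, 1 for each probe set on each array. Per the submitters' processing notes, MAS5 made them, with no tool stated for medulloblastoma 3. Each array's trimmed mean, without 2% at each end, was 500.002 in the deposited intensities. Each was brought to 500 and log2(signal + 32) was taken, which understates differences of low signals. The number of arrays limits the precision. Tumours are numbered in record order. The platform annotation gave 1 symbol for 34945 probe sets, several for 932 and none for 9160, and 34741 matched RefSeq genes by Entrez ID. Each gene was its brightest probe set, with a mean signal of at least 100. The comparison used limma 3.58.1 in R 4.3.3 (eBayes with a variance trend, two-sided, Benjamini-Hochberg, threshold 0.05), after tests on simulated data. The intervals use the fit's 3 residual and 5.02 prior degrees of freedom. The members, lists and settings were chosen with earlier results of these data known. Named were all members, called genes and up to 3 others of each pathway list with the largest differences, and the 3 genes closest in pattern to Hk2 and to Ldhb. Ptbp1, Hnrnpa2b1 and Hnrnpa1 were added after their values were seen. Markers of erythroid cells (4 of 7 measured) summed to 143 to 287 in the tumours against 610. Of these 4, 3 had a mean signal under 100. Markers of granule neuron precursors summed to 50169 to 61178 against 44185. The largest part of the cerebellar sum was Zic1, at 24337 against 16486 to 21638 in the tumours. In every tumour 5 of these markers lay above the cerebellum and 2 (Zic1 and Pax6) below, against 25.1% and 30.8% of all genes. Atoh1 alone of them was called, higher by 2.81 (limma, adjusted p = 0.0336), where 0.312% of all genes tested were called higher. Markers of oligodendrocytes summed to 16263 to 33935 against 15725. The largest part was Mbp, at 28288, 11445, 7719 and 7760 in medulloblastomas 1 to 4 against 9816. Among the tumours, Mag was also highest in medulloblastoma 1, whereas Olig1 and Pdgfra were lowest there. Alternatives were other scalings, constants, filters, probe set choices, variance models, thresholds, each tumour left out, and each title prefix.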

Additional observations from a re-analysis of the deposited data

How the results depend on the processing

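No paired analysis was possible because the cerebellum has 1 array. Hk2 kept its sign in all 18 alternatives with a fit (2.24 to 3.22) and was called in 3; Pfkp kept its sign (-2.31 to -1.35) and was called in 2, and Hk1 (-0.97 to -0.36) and Pfkm in 1 each. Ldha turned to 0.060 with equal medians and Pfkm to 0.19 with the ken tumours. The members called were 0 higher and 0 lower, and became 1 higher with equal medians, 1 and 1 without medulloblastoma 1, 1 and 3 in the hmk arrays alone, 1 higher at an adjusted p of 0.10, and 1 and 1 by 2-fold distance in each tumour. Leaving out each tumour gave 0 to 1 members in either direction. Over all genes, 44 were higher and 25 lower; the counts were 78 and 20 with equal medians, 40 and 45 with the larger constant before log2, 14 and 12 with no filter, 19 and 9 with all probe sets averaged, 0 and 0 by limma without a variance trend (908 and 1099 at an unadjusted p under 0.05), 837 and 841 in the hmk arrays, 21 and 16 in the ken tumours, 1 and 0 at an adjusted p of 0.01, 98 and 65 at 0.10, and 284 and 371 by 2-fold distance. Without each tumour they ranged from 0 to 448 higher and 0 to 383 lower, highest without medulloblastoma 1 and 0 and 0 without medulloblastoma 4 (806 and 896 at an unadjusted p under 0.05). Fits with fewer tumours take their spread from those left; the cause of the other shifts was not tested. The members' median stayed negative, from -0.47 to -0.014.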

Other observations

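Gapdh, the glycolytic dehydrogenase often used as a reference gene, was measured here by the array's control probe sets. The control at the 3' end read 26928, 19592, 20435 and 20485 in medulloblastomas 1 to 4 and 18503 in the cerebellum. The control in the middle of the transcript read 24710, 21961, 23533 and 23216 against 19732, and that at the 5' end read 28461, 24738, 27967 and 26093 against 22458. The tumours were above the cerebellum at each of these controls. Medulloblastoma 1 was the highest, as for 8 of the 9 members.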
